A study of Mus musculus with 22 samples.

Results

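The genes described are purinergic receptors and ectonucleotidases of macrophages sorted from injured mouse muscle. The 10 genes are the P2Y-type receptor genes P2ry6, P2ry10, P2ry12, P2ry13 and P2ry14, the P2X channel genes P2rx4 and P2rx7, the ectonucleotidase genes Entpd1 and Nt5e, and the adenosine receptor gene Adora2b. They were selected on what they encode, with earlier results of these arrays known, so their levels are given as a description and the tests are those of a fit over all genes. Of the 10 genes, 9 were analysed among 19938 genes in all, each through the only probe set that the platform's gene table gives it. Adora2b and the other adenosine receptors were not analysed here.

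Damaged cells release ATP, ADP, UTP and UDP-sugars, which act on P2X receptors, ATP-gated cation channels, and on P2Y receptors, which couple to G proteins. ENTPD1 (CD39) on the cell surface cuts ATP and ADP to AMP, and NT5E (CD73) cuts AMP to adenosine, which acts on a receptor family of its own and restrains inflammatory macrophages. In phagocytes these systems are known for sensing dying cells, for guiding migration and, through P2RX7, for setting off the NLRP3 inflammasome.

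The mice were of the strain the labels call C57B6/J, and all carried the same injury, cardiotoxin, a venom component that destroys myofibres, injected into the Tibialis anterior. CD45+ leukocytes were enriched on magnetic beads 1, 2, 4 and 8 days later, and a sort on Gr1 and Cx3cr1 gave a Gr1-positive subset with low Cx3cr1 and a Gr1-negative subset with high Cx3cr1 (in the protocol also Ly6C+ F4/80low and Ly6C- F4/80high). There were 3 arrays for each day and subset, but a single one for day 8 Gr1-positive cells, and so 22 arrays in 8 groups. The labels call them biological replicates and give neither the age nor the sex of the mice, nor whether animals were pooled, so p-values measure the spread between these samples. The median log2 signal of an array was 7.02 to 7.18, and precision is limited by how few arrays there are. Against the cell type the labels give, the 9 of 10 macrophage markers analysed (among them Csf1r, Adgre1 and Cd68) had a mean log2 signal of 11.89 to 12.14 on every array. In bulk samples such as these, fewer cells of a type and less RNA per cell cannot be told apart.

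The 3 receptor genes P2ry12, P2ry13 and P2ry14 lie close together on chromosome 3 and were all high at day 4, Nt5e was high at day 1, and P2ry10 separated the subsets. Their promoters are shown because these are the genes the results turn on. The sequences are from RefSeq (GRCm38.p6), run 5′ to 3′ on the gene's strand from 250 bases before to 50 bases after the most upstream listed start, and the capitals mark motif matches. The windows are chr3:59262936-59263235 on the minus strand for P2ry12, chr3:59210833-59211132 on the minus strand for P2ry13 and chr3:59153443-59153742 on the minus strand for P2ry14. Those of Nt5e and P2ry10 are chr9:88327359-88327658 and chrX:107088242-107088541, both on the plus strand.
P2ry12: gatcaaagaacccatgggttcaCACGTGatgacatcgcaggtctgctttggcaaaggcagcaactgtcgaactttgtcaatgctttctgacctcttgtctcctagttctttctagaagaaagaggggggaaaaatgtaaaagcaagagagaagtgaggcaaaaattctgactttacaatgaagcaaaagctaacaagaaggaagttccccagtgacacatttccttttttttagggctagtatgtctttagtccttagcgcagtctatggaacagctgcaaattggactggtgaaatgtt
P2ry13: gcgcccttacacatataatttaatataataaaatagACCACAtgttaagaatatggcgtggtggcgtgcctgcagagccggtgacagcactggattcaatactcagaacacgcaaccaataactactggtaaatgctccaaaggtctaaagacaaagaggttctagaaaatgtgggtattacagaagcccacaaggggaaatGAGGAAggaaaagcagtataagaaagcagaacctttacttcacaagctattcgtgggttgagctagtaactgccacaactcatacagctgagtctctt
P2ry14: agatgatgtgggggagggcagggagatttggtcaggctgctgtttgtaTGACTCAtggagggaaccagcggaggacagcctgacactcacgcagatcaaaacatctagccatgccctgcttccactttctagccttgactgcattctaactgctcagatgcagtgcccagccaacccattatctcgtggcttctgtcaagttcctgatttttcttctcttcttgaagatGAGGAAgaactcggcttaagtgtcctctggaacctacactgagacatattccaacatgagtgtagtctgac
Nt5e: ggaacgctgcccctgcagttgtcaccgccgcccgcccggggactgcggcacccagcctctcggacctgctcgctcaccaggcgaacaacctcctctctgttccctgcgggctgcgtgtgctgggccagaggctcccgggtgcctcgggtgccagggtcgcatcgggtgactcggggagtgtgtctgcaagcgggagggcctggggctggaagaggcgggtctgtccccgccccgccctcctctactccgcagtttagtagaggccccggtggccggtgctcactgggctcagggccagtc
P2ry10: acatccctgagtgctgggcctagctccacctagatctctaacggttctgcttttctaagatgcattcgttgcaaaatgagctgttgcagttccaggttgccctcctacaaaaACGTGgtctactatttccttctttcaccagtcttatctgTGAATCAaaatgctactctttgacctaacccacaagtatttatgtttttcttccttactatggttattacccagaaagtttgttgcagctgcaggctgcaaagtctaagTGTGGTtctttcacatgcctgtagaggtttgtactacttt

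The motifs searched, on both strands, were a PU.1 core (GAGGAA), an AP-1 site (TGANTCA), a cAMP response core (TGACG), a hypoxia response core (ACGTG) and a RUNX core (TGTGGT). Of 32851 promoters of this length, 28.3% hold the PU.1 core, 7.8% the AP-1 site, 20.8% the cAMP response core, 19.6% the hypoxia core and 16.8% the RUNX core. P2ry13 and P2ry14 both hold the PU.1 core (at -48 and -21 from the start). P2ry13 also holds the RUNX core at -214, and P2ry14 an AP-1 site at -202. In P2ry12 the hypoxia core has 2 matches, which overlap on opposite strands as 1 palindrome. P2ry10 holds a match to the AP-1 letters at -99 (TGAATCA, with A as the free middle letter), the hypoxia core at -138 and the RUNX core at 10. Nt5e, with no match to the spellings searched in its window, has 71.0% G and C and 23 CpG sites. P2ry10, P2ry12 and P2ry13 each have 42.3% G and C, against a median of 52.7% over all promoters. No motif, as spelled here, was held by all 3 neighbouring receptor genes. The hypoxia core was searched with A as its first letter only. GCGTG, which the windows of Nt5e, P2ry13 and P2ry14 hold, was not counted. A match is a run of letters, and binding was not measured.

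Most of the 7 receptor genes described here were higher at day 4 than at day 2 in both subsets. Levels are log2 signal with SD over arrays, differences are log2 values with the SE of limma's moderated fit, and a gene passed at an adjusted p (Benjamini-Hochberg over all genes) under 0.05. From day 2 to day 4, 7 of the 9 genes rose and 1 fell in Gr1-positive cells, where 11.8% of all genes rose and 7.44% fell. In Gr1-negative cells 5 rose and 1 fell, against 8.15% and 6.69% of all genes. The median difference of the 9 genes was 1.2 in Gr1-positive and 0.6 in Gr1-negative cells, and that of all genes was -0.057 and -0.07. Arrays of both days did not overlap for 9 of the 9 genes in Gr1-positive cells (31.1% of all genes) and for 8 in Gr1-negative cells (42.0%). The other 9 P2X and P2Y receptor genes went otherwise in this step, with 0 higher and 2 lower (P2ry2 and P2ry10b) in each subset, and medians of -0.11 in the Gr1-positive and -0.2 in the Gr1-negative one.

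**Figure D1:**
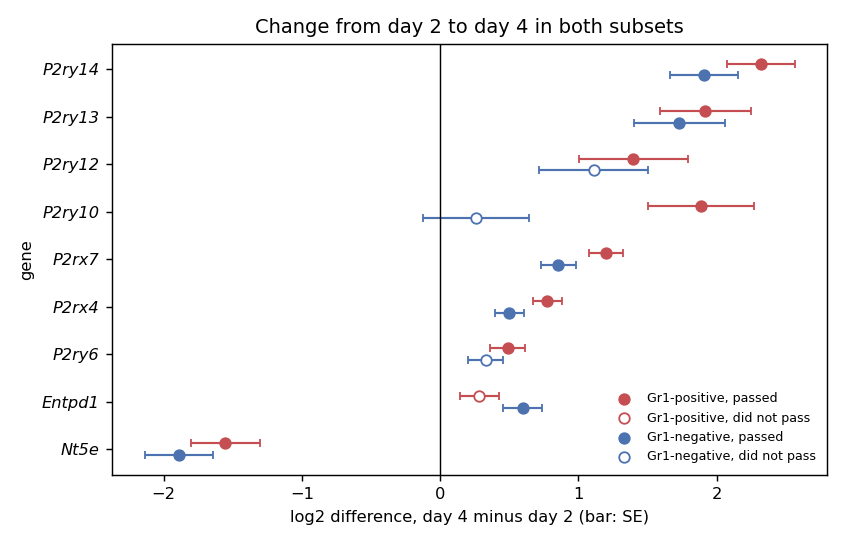
Log2 difference from day 2 to day 4 for each of the 9 genes, in Gr1-positive (red) and Gr1-negative (blue) cells; points are limma estimates, bars the SE, and filled points passed at an adjusted p under 0.05. P2ry14 has the highest difference in both subsets (2.32 and 1.91), and Nt5e lies below 0 in both (-1.55 and -1.89).

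P2ry14, which encodes a receptor for UDP-glucose and other UDP-sugars, was low at first in both subsets and highest at day 4. In Gr1-positive cells its 3 arrays read 6.70, 6.94 and 6.79 at day 1, 6.78, 7.52 and 7.50 at day 2, and 9.95, 9.56 and 9.25 at day 4, and the only array of day 8 read 8.43. The day 4 arrays were all above every array of days 1 and 2, and the day 8 array lay between them. In Gr1-negative cells they read 7.44, 8.14 and 8.27 at day 1, 7.38, 8.06 and 8.19 at day 2, 9.63, 9.84 and 9.88 at day 4, and 9.07, 9.57 and 9.55 at day 8. Here days 4 and 8 were both above the earlier days without overlap. The rise from day 2 to 4 was 2.32 ± 0.25 in Gr1-positive cells (4.99-fold, limma adjusted p = 5.8e-06) and 1.91 ± 0.25 in Gr1-negative cells (3.75-fold, adjusted p = 4.26e-05).

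P2ry14 was also the second of the genes to separate the subsets early. At day 1 it was 1.14 ± 0.25 higher in Gr1-negative than in Gr1-positive cells (2.2-fold, limma adjusted p = 0.0311), and the 6 arrays did not overlap. That call was lost with quantile normalization (adjusted p = 0.0516) and when 1 array was left out, for 5 of the 6 arrays. These were Gr1-positive replicates 1, 2 and 3 (adjusted p = 0.151, 0.0769 and 0.068) and Gr1-negative replicates 2 and 3 (0.171 and 0.15). The difference was 0.61 ± 0.25 at day 2 (adjusted p = 0.196), 0.20 at day 4 (0.736) and 0.96 ± 0.35 at day 8 against the single Gr1-positive array (0.157), none of which passed. The shift in the subset difference between days 1 and 4, -0.94 ± 0.35, did not pass (adjusted p = 0.644).

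P2ry13 encodes a Gi-coupled receptor for ADP. Its Gr1-positive arrays read 8.21, 8.32 and 8.79 at day 1, 8.39, 9.55 and 9.27 at day 2, 10.81, 10.95 and 11.21 at day 4, and 10.01 at day 8. Its Gr1-negative arrays read 7.59, 7.98 and 8.79 at day 1, 8.44, 9.55 and 9.20 at day 2, 10.74, 10.69 and 10.94 at day 4, and 9.42, 10.30 and 10.30 at day 8. In both subsets day 4 stood above days 1 and 2 without overlap, and the subsets overlapped on each day with replicates in both. P2ry13 rose from day 2 to 4 by 1.92 ± 0.33 in Gr1-positive cells (3.78-fold, limma adjusted p = 0.000407) and by 1.73 ± 0.33 in Gr1-negative cells (3.32-fold, adjusted p = 0.00125). From day 4 to 8 the values were -0.98 ± 0.47 (adjusted p = 0.229) and -0.79 ± 0.33 (0.125), which did not pass.

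P2ry12 encodes the other ADP receptor of the stretch, known from platelets and from microglia, where it guides processes towards damage. In Gr1-positive cells the arrays read 7.33, 7.88 and 8.87 at day 1, 7.56, 9.35 and 8.93 at day 2, 10.04, 9.91 and 10.08 at day 4, and 9.02 at day 8. In Gr1-negative cells they read 7.36, 8.25 and 8.48 at day 1, 8.65, 9.34 and 9.22 at day 2, 10.20, 10.14 and 10.19 at day 4, and 9.02, 9.55 and 9.71 at day 8. The day 1 and day 2 arrays of a group spread widely, with an SD of up to 0.94, and the day 4 arrays lay close together (SD 0.09 and 0.03). P2ry12 rose by 1.4 ± 0.39 from day 2 to 4 in Gr1-positive cells (2.63-fold, limma adjusted p = 0.0161). Without day 2 Gr1-positive replicate 1 that difference was 0.87 (adjusted p = 0.106), and without day 4 Gr1-positive replicate 3 it missed the threshold (0.0512). In Gr1-negative cells the same step, 1.11 ± 0.39, did not pass (adjusted p = 0.0665).

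**Figure D2:**
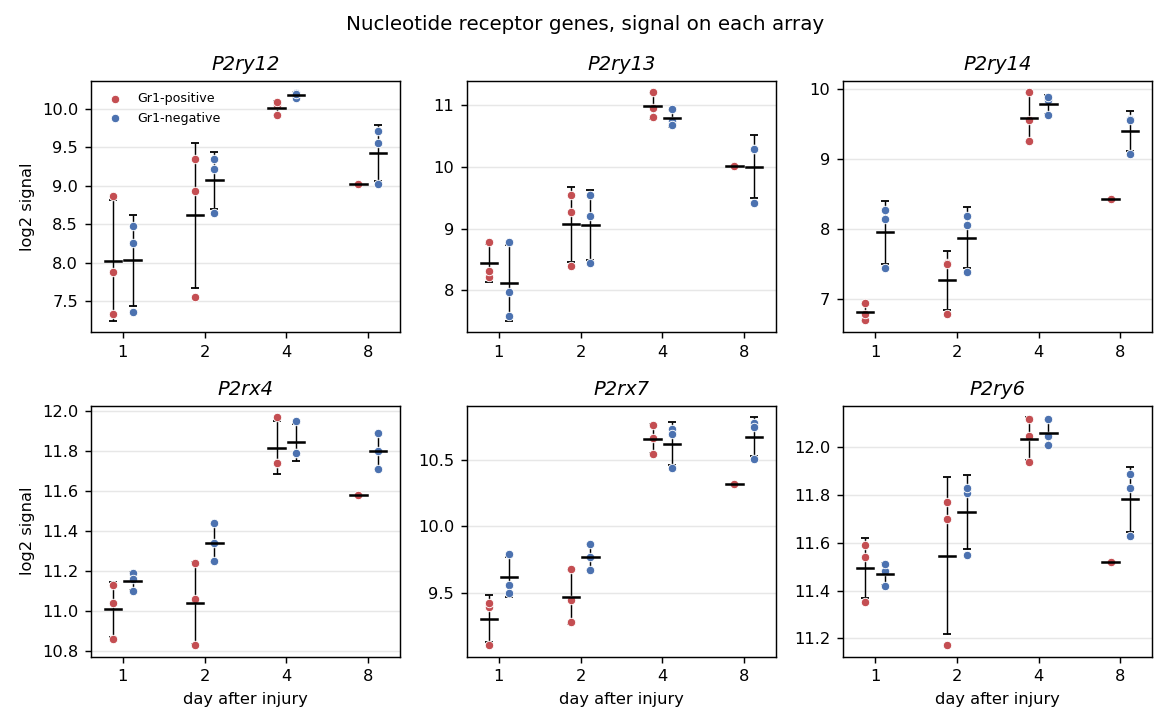
Log2 signal of 6 receptor genes on each array (points) by day after injury, Gr1-positive in red and Gr1-negative in blue, with the group mean (bar) and SD (whisker); each panel has its own axis, which does not start at 0. All 3 neighbouring receptor genes (P2ry12, P2ry13, P2ry14) are highest at day 4, with means of 9.58 to 10.99 in Gr1-positive and 9.78 to 10.79 in Gr1-negative cells.

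Over the longest spans with replicates on both ends, most of the genes passed. Between days 1 and 4 in Gr1-positive cells, 7 of 9 genes rose and 1 fell, against 16.2% and 9.42% of all genes. P2ry14 rose by 2.77 ± 0.25 (6.84-fold, limma adjusted p = 3.19e-07), P2ry13 by 2.55 ± 0.33 (5.86-fold, adjusted p = 1.29e-05) and P2ry12 by 1.98 ± 0.39 (3.95-fold, adjusted p = 0.000795). Between days 1 and 8 in Gr1-negative cells, 6 of 9 rose and 1 fell, against 8.68% and 9.77% of all genes. P2ry13 rose by 1.89 ± 0.33 (3.7-fold, adjusted p = 0.000464), P2ry14 by 1.45 ± 0.25 (2.73-fold, adjusted p = 0.000364) and P2ry12 by 1.4 ± 0.39 (2.64-fold, adjusted p = 0.0166). The P2ry12 call was lost without day 1 Gr1-negative replicate 1 (adjusted p = 0.1), day 8 Gr1-negative replicate 2 (0.0595) or replicate 3 (0.0676). These spans share arrays with the steps above.

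Few of the genes passed in the first and last steps. From day 1 to 2, 1 of 9 genes passed in Gr1-negative cells, where 3.8% of all genes rose and 1.08% fell, and 1 passed in Gr1-positive cells, where 0.16% rose and 0.13% fell. In both subsets that gene was Nt5e, which fell. In Gr1-negative cells P2ry12 differed by 1.04 ± 0.39 (2.06-fold, limma adjusted p = 0.142) and P2ry13 by 0.94 ± 0.33 (1.92-fold, adjusted p = 0.111). With array quality weights these were 0.96 (adjusted p = 0.0236) and 1.0 (0.0155), and without both day 2 arrays numbered 1 they were 1.25 (0.0256) and 1.25 (0.0114), so both passed there. With quantile normalization the Gr1-positive calls over all genes split into 64 higher and 24 lower, in place of 32 and 26. From day 4 to 8 limma called 0 of 9 genes in Gr1-negative cells, where 2 had an unadjusted p under 0.05 and 3.17% of all genes rose and 7.34% fell. It also called 0 in Gr1-positive cells, with 3 at that p, where 1.58% of all genes rose and 4.62% fell, against a single day 8 array. The largest of these was P2ry14 in Gr1-positive cells, -1.15 ± 0.35 (adjusted p = 0.0557, and 0.0394 without day 4 Gr1-positive replicate 3). P2ry12 differed by -0.99 ± 0.56 there (1.99-fold, adjusted p = 0.323). The median of the 9 genes in that step was -0.35, against -0.028 over all genes.

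The neighbours of the receptor genes did not all share their course. By start position of RefSeq protein-coding genes on chromosome 3, Med12l and the G protein-coupled receptor gene Gpr171 come before P2ry14, P2ry13 and P2ry12. That order does not show where a gene ends, and a gene between P2ry14 and P2ry13 was not analysed. Med12l, a relative of a Mediator subunit gene, differed by 0.21 ± 0.12 (limma adjusted p = 0.263) in Gr1-positive and 0.24 ± 0.12 (0.225) in Gr1-negative cells from day 2 to 4. Gpr171 was 1.74 ± 0.23 higher in Gr1-negative cells at day 1 (3.33-fold, adjusted p = 0.000477) and rose by 1.03 ± 0.23 from day 2 to 4 in Gr1-positive cells (adjusted p = 0.00333). On chromosome 7, P2ry2, which encodes a receptor for ATP and UTP and lies beside P2ry6, fell by 1.2 ± 0.16 from day 2 to 4 in Gr1-positive cells (2.3-fold, adjusted p = 3.68e-05) and fell by 1.56 ± 0.16 in Gr1-negative cells (2.96-fold, adjusted p = 6.32e-06). On chromosome X, P2ry10b, the neighbour and near relative of P2ry10, fell by 0.68 ± 0.14 in Gr1-positive cells (adjusted p = 0.00177) and fell by 0.78 ± 0.14 in Gr1-negative cells (0.000874) over the same step. P2ry10 and P2ry10b are alike in sequence, so signal shared between their probe sets cannot be told apart here.

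**Figure D3:**
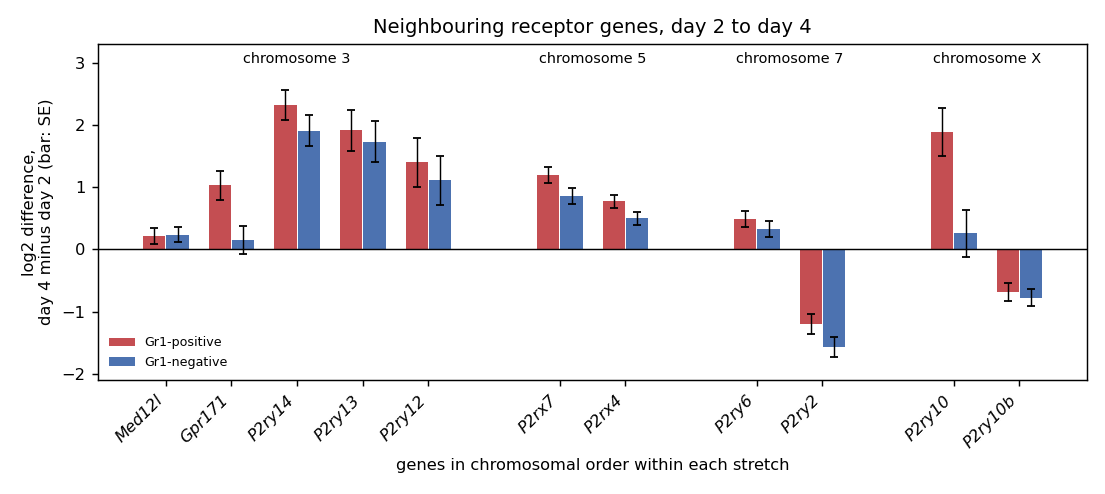
Log2 difference from day 2 to day 4 (bars from 0, with the SE) for receptor genes and their analysed neighbours in order of start position, Gr1-positive in red and Gr1-negative in blue. The bars of P2ry14, P2ry13 and P2ry12 are above 1 in both subsets, that of Med12l is 0.21 and 0.24, and those of P2ry2 and P2ry10b lie below 0.

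P2RX4 and P2RX7 are ATP-gated channels whose genes lie next to each other on chromosome 5. P2rx7, whose product opens at high ATP and is known for inflammasome activation, read 9.10, 9.39 and 9.42 at day 1, 9.28, 9.68 and 9.44 at day 2, 10.67, 10.55 and 10.77 at day 4 and 10.32 at day 8 in Gr1-positive cells. In Gr1-negative cells it read 9.56, 9.79 and 9.5 at day 1, 9.77, 9.87 and 9.67 at day 2, 10.74, 10.44 and 10.70 at day 4, and 10.51, 10.78 and 10.75 at day 8. Days 4 and 8 stood above days 1 and 2 in both subsets with no overlap. P2rx7 rose from day 2 to 4 by 1.2 ± 0.12 in Gr1-positive cells (2.29-fold, limma adjusted p = 4.32e-06) and by 0.86 ± 0.12 in Gr1-negative cells (1.81-fold, adjusted p = 0.000121). From day 1 to 8 it rose by 1.06 ± 0.12 in Gr1-negative cells (2.09-fold, adjusted p = 9.49e-06). In Gr1-positive cells it rose by 1.36 ± 0.12 from day 1 to 4 (2.56-fold, adjusted p = 3.74e-07).

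P2rx4, whose product is known from lysosomes as well as the cell surface, had a like course over a narrower range. Its Gr1-positive arrays read 10.86, 11.04 and 11.13 at day 1, 10.83, 11.06 and 11.24 at day 2, 11.97, 11.74 and 11.74 at day 4, and 11.58 at day 8. Its Gr1-negative arrays read 11.10, 11.19 and 11.16 at day 1, 11.25, 11.34 and 11.44 at day 2, 11.95, 11.79 and 11.79 at day 4, and 11.71, 11.80 and 11.89 at day 8. The arrays of days 4 and 8 were above all of days 1 and 2 in both subsets. From day 2 to 4 it rose by 0.78 ± 0.10 in Gr1-positive cells (1.71-fold, limma adjusted p = 4.66e-05) and by 0.50 ± 0.10 in Gr1-negative cells (1.41-fold, adjusted p = 0.00264). Over the longer spans P2rx4 rose by 0.81 ± 0.10 from day 1 to 4 in Gr1-positive cells (1.75-fold, adjusted p = 1.35e-05) and by 0.65 ± 0.10 from day 1 to 8 in Gr1-negative cells (1.57-fold, adjusted p = 0.000235). Neither channel gene passed between the subsets on any day; P2rx7 was 0.31 ± 0.12 higher in Gr1-negative cells at day 1 without overlap (adjusted p = 0.397), and P2rx4 0.30 ± 0.10 higher at day 2 (0.127).

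P2ry6, whose product binds UDP and drives phagocytosis in microglia, varied least of the 9 genes, with group means that span 0.59. Its Gr1-positive arrays read 11.35, 11.59 and 11.54 at day 1, 11.17, 11.77 and 11.70 at day 2, 12.12, 11.94 and 12.05 at day 4, and 11.52 at day 8. Gr1-negative arrays read 11.42, 11.48 and 11.51, then 11.55, 11.81 and 11.83, then 12.05, 12.12 and 12.01, and at day 8 11.63, 11.89 and 11.83. Day 4 was above the earlier days in both subsets. P2ry6 rose by 0.49 ± 0.13 from day 2 to 4 in Gr1-positive cells (1.4-fold, limma adjusted p = 0.00978), a call lost without day 2 Gr1-positive replicate 1 (0.0586), and by 0.54 ± 0.13 from day 1 to 4 (1.46-fold, adjusted p = 0.00321). The step of 0.33 ± 0.13 in Gr1-negative cells did not pass (adjusted p = 0.0963).

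P2ry10 was the gene that set the subsets apart. Its product is related to the P2Y receptors in sequence, but is known as a receptor for lysophosphatidylserine in lymphocytes and other leukocytes. In Gr1-positive cells its arrays read 7.47, 6.52 and 6.09 at day 1, 6.38, 6.62 and 6.66 at day 2, 8.73, 9.19 and 7.40 at day 4, and 8.62 at day 8. In Gr1-negative cells they read 9.84, 9.95 and 10.22, then 9.30, 9.36 and 9.85, then 9.24, 10.18 and 9.86, and at day 8 10.39, 9.63 and 9.5. Every Gr1-negative array was above every Gr1-positive array of all days, the nearest being 9.24 and 9.19 at day 4. The Gr1-positive arrays of day 4 spread by an SD of 0.93, with replicate 3 at 7.40.

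The difference between the subsets at day 1 was 3.31 ± 0.38 (9.89-fold, limma adjusted p = 9.48e-05), and at day 2 it was 2.95 ± 0.38 (7.71-fold, adjusted p = 0.000367). At day 1, 2 of the 9 genes were higher in Gr1-negative cells and 0 lower, where 0.682% of all genes were higher and 0.176% lower. At day 2, 1 of 9 was higher, against 2.85% higher and 0.682% lower. At day 4 the P2ry10 difference was 1.32 ± 0.38 (adjusted p = 0.152), and limma called 0 of 9 genes, with 1 at an unadjusted p under 0.05, against 0.547% of all genes higher and 0.171% lower. At day 8, against 1 Gr1-positive array, it was 1.22 ± 0.54 (adjusted p = 0.248), with 0 of 9 called and 2 at that p, against 1.33% higher and 0.692% lower.

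In Gr1-positive cells P2ry10 rose from day 2 to 4 by 1.89 ± 0.38 (3.69-fold, limma adjusted p = 0.00155), and from day 1 to 4 by 1.74 ± 0.38 (3.35-fold, adjusted p = 0.00178), where the arrays of both days overlap. In Gr1-negative cells the step from day 2 to 4 was 0.26 (adjusted p = 0.69). The shift in the difference between subsets was -1.63 ± 0.54 from day 2 to 4 (adjusted p = 0.56) and -1.99 ± 0.54 from day 1 to 4 (adjusted p = 0.299), so neither passed. Without day 4 Gr1-positive replicate 3 the second was -2.51 (adjusted p = 0.0231). Of all genes, 0.01% passed as higher and 0.00502% as lower for the change from day 2 to 4, and 0.0351% and 0.0602% for that from day 1 to 4. Limma called 0 of the 9 genes in both, with 1 and 3 at an unadjusted p under 0.05. With quantile normalization the calls over all genes from day 1 to 4 were 3 higher and 11 lower, in place of 7 and 12.

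Markers of other cell types moved with P2ry10 and with the genes that rose at day 4. The 10 conventional dendritic cell markers, all analysed, had a mean level per array of 7.13 to 7.20 at day 1 and 8.27 to 8.57 at day 4 in Gr1-positive cells, and of 8.58 to 9.24 and 9.31 to 10.02 in Gr1-negative cells. In Gr1-negative cells 7 of 10 were higher at day 1, 8 at day 2, 6 at day 4 and 4 at day 8, and 0 were lower. Ccr7, the homing receptor of migrating dendritic cells, averaged 8.14 ± 0.38 in the Gr1-positive subset at day 1 and 11.37 ± 0.17 in the Gr1-negative one. Over the 22 arrays P2ry10 correlated with this list at 0.91, a description over arrays that share day and subset. The mean of the neutrophil markers (12 of 12 analysed) went the other way, with 7.89 to 8.26 in Gr1-positive and 7.1 to 7.47 in Gr1-negative cells at day 1. Of these 12 genes, 5 passed as lower in Gr1-negative cells at day 1 and 0 as higher. The mast cell and eosinophil list (10 of 10) was at 6.03 to 6.16 in Gr1-positive and 6.67 to 7.94 in Gr1-negative cells at day 1 and correlated with P2ry10 at 0.66, above the T and NK list at 0.58. Kit was the only gene of this list that passed as higher in Gr1-negative cells at days 1, 2 and 4, and Siglecf passed as lower at day 2. At day 8 the list was at 7.08 to 8.18 in Gr1-negative cells, against 5.99 on the single Gr1-positive array. The median difference of its genes was 1.5 there and 1.17 at day 1. Cpa3, a mast cell protease gene, averaged 8.86 ± 1.95 in Gr1-negative against 5.51 ± 0.25 in Gr1-positive cells at day 1, and did not pass.

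T and NK cell markers (12 of 14 analysed) had a mean level of 6.97 to 7.08 at day 2 and 8.40 to 9.77 at day 4 in Gr1-positive cells, where 10 rose and 1 fell, with a median difference of 2.43. Their level in Gr1-negative cells was 7.31 to 7.55 and then 8.06 to 8.92, with 5 higher and 1 lower. At day 1 these markers were at 6.91 to 7.0 in Gr1-positive and 7.57 to 7.84 in Gr1-negative cells. Nkg7 and Klrd1 passed as higher in Gr1-negative cells at day 1, Klrd1 at day 2, and Cd8b1 as lower at day 4. Plasmacytoid dendritic markers (8 of 10 analysed) were at 8.17 to 8.52 at day 2 and 9.41 to 9.86 at day 4 in Gr1-positive cells, where 7 rose, and at 8.39 to 8.55 and then 8.77 to 8.83 in Gr1-negative cells, where 1 rose. P2ry14 correlated over the 22 arrays with the T and NK list at 0.86, the conventional dendritic list at 0.79 and the plasmacytoid list at 0.7. With the macrophage list P2ry14 correlated at 0.75, and P2ry6, P2ry12 and P2ry13 did so at 0.83, 0.82 and 0.79. The B cell list (7 of 8 analysed) had a mean level of 6.16 to 6.77 per array and correlated with P2ry14 at 0.81. Among its genes Cd79b went from 7.47 ± 0.06 at day 1 to 9.6 ± 0.05 at day 4 in Gr1-positive cells, while Cd79a was at 5.53 ± 0.13 and 5.38 ± 0.22 and Ms4a1 at 5.28 ± 0.18 and 5.32 ± 0.08. Fibroblast markers (9 of 10) had a mean level of 6.68 to 6.87 at day 2 and 7.22 to 8.63 at day 4 in Gr1-negative cells, where 2 rose, and muscle markers (10 of 10) of 7.12 to 7.2 and 7.34 to 7.57, where 3 rose. In Gr1-positive cells 1 fibroblast and 3 muscle markers rose. P2ry14, P2rx4 and P2rx7 correlated with the fibroblast list at 0.69, 0.74 and 0.73 and with the muscle list at 0.65, 0.73 and 0.76. For P2rx4 and P2rx7 the values were higher with the B cell list (0.86 and 0.86) and the T and NK list (0.84 and 0.85). With the macrophage list they were 0.7 and 0.68, and with the conventional dendritic list 0.7 and 0.67. The endothelial list (9 of 9) lay between -0.22 and 0.31 in its correlation with each of the 9 genes. Platelet markers (7 of 10), which bear on P2ry12, had no member that passed as higher in any comparison, and Ppbp fell from day 2 to 4 in both subsets. The part of these cell types in the results for the 9 genes was not tested.

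**Figure D4:**
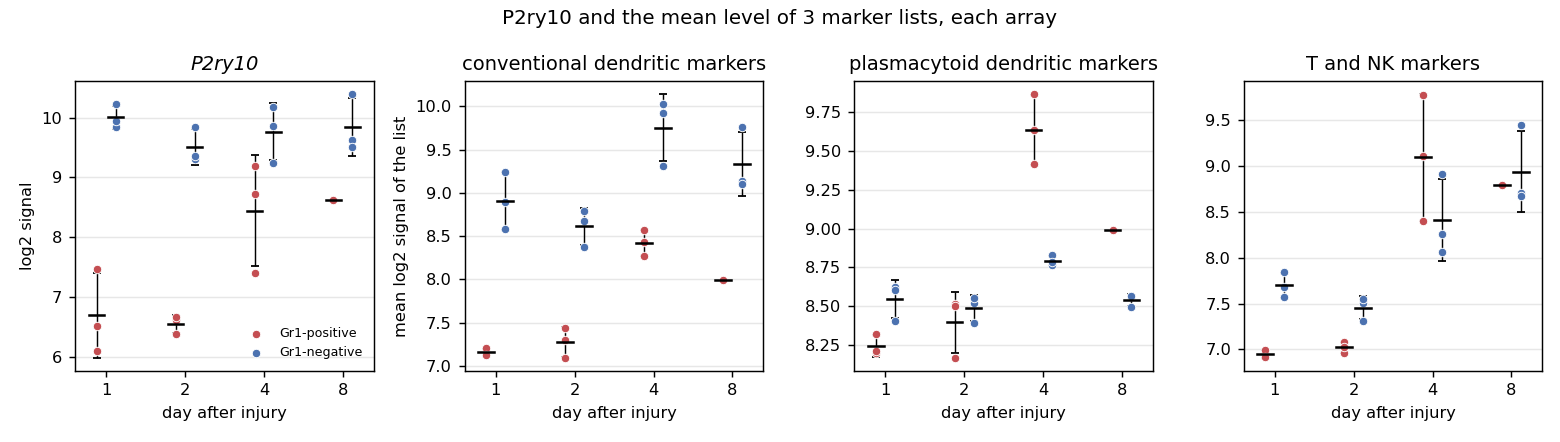
Log2 signal of P2ry10 and the mean log2 signal of 3 marker lists on each array (points) by day after injury, Gr1-positive in red and Gr1-negative in blue, with the group mean (bar) and SD (whisker); axes differ between panels and do not start at 0. P2ry10 and the conventional dendritic list are higher in Gr1-negative cells on every day, and the T and NK list of Gr1-positive cells goes from 6.97 to 7.08 at day 2 to 8.40 to 9.77 at day 4.

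Nt5e, which encodes the enzyme that makes adenosine from AMP, ran against the receptor genes. Its Gr1-positive arrays read 10.90, 10.33 and 10.44 at day 1, 9.46, 9.09 and 8.85 at day 2, 7.87, 7.68 and 7.19 at day 4, and 7.51 at day 8. Its Gr1-negative arrays read 10.97, 10.86 and 10.43 at day 1, 9.48, 8.83 and 8.82 at day 2, 7.69, 7.02 and 6.76 at day 4, and 7.49, 7.25 and 7.08 at day 8. Days 1, 2 and 4 did not overlap in either subset, while the subsets overlapped on each of these days. Between days 1 and 2 Nt5e fell by 1.71 ± 0.25 in Gr1-negative cells (3.27-fold, limma adjusted p = 0.00113) and fell by 1.42 ± 0.25 in Gr1-positive cells (2.68-fold, adjusted p = 0.024).

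From day 2 to 4 it fell by 1.89 ± 0.25 in Gr1-negative cells (3.71-fold, limma adjusted p = 4.63e-05) and fell by 1.55 ± 0.25 in Gr1-positive cells (2.93-fold, adjusted p = 0.000201). Between days 1 and 8 in Gr1-negative cells Nt5e fell by 3.48 ± 0.25 (11.2-fold, adjusted p = 6.25e-08), and from day 1 to 4 in Gr1-positive cells it fell by 2.98 ± 0.25 (7.87-fold, adjusted p = 1.66e-07). The first step in Gr1-positive cells lost its call without day 1 replicate 1 (adjusted p = 0.158), day 2 replicate 2 (0.124) or day 2 replicate 3 (0.111). The platelet list correlated with Nt5e at 0.92 over the 22 arrays, with mean levels of 8.62 to 8.71 at day 1 and 7.65 to 8.20 at day 4 in Gr1-positive cells, and its part in this result was not tested. Of its 7 genes 2 fell from day 1 to 4 there, Ppbp (12.82 ± 0.18 to 8.32 ± 1.79) and Pf4 (12.42 ± 0.1 to 11.61 ± 0.52), and the median difference of the list was -0.07. Itga2b, a defining platelet gene, was at 7.43 ± 0.03 and 7.36 ± 0.02.

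**Figure D5:**
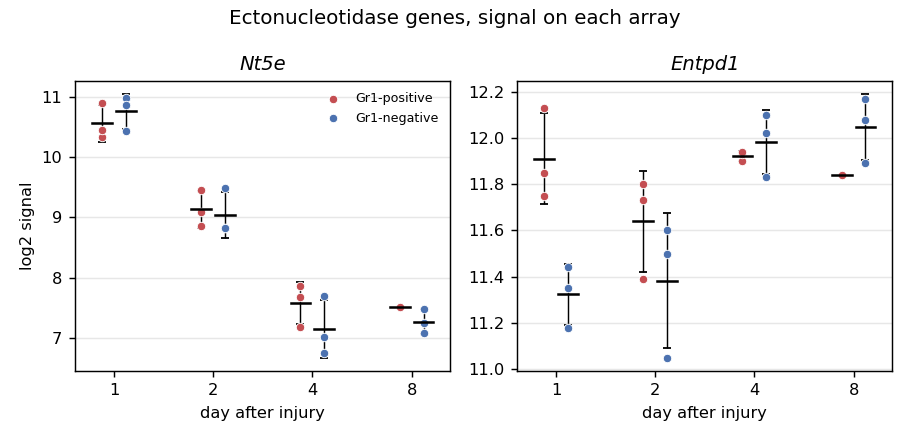
Log2 signal of Nt5e and Entpd1 on each array (points) by day after injury, Gr1-positive in red and Gr1-negative in blue, with the group mean (bar) and SD (whisker); axes differ and do not start at 0. Nt5e falls from means of 10.56 and 10.75 at day 1 to 7.58 and 7.15 at day 4, and Entpd1 is at 11.91 in Gr1-positive and 11.32 in Gr1-negative cells at day 1.

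Entpd1, which encodes the enzyme one step upstream, moved little and the other way. It read 12.13, 11.85 and 11.75 at day 1, 11.39, 11.73 and 11.80 at day 2, 11.90, 11.93 and 11.94 at day 4, and 11.84 at day 8 in Gr1-positive cells. Gr1-negative arrays read 11.35, 11.18 and 11.44 at day 1, 11.05, 11.50 and 11.60 at day 2, 11.83, 12.10 and 12.02 at day 4, and 11.89, 12.17 and 12.08 at day 8. In Gr1-negative cells days 4 and 8 were above days 1 and 2, and at day 1 all Gr1-positive arrays were above the Gr1-negative ones. Entpd1 rose in Gr1-negative cells by 0.60 ± 0.14 from day 2 to 4 (1.51-fold, limma adjusted p = 0.00636) and by 0.72 ± 0.14 from day 1 to 8 (1.65-fold, adjusted p = 0.00117). In Gr1-positive cells the values were 0.28 ± 0.14 from day 2 to 4 (adjusted p = 0.183) and 0.01 from day 1 to 4 (0.973). The subset difference at day 1, -0.59 ± 0.14, did not pass (adjusted p = 0.0571). Among the alternatives without a replicate block, it passed without Gr1-positive replicate 3 (0.045) and with the genes under the median mean left out (0.0384). It also passed with a robust variance trend (0.0443), with array quality weights (0.0283) and without both day 2 arrays numbered 1 (0.00875). The replicate block is described in the last section.

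Over days 1, 2 and 4, day took 94.5% of the variance of Nt5e over 18 arrays, 89.6% of that of P2rx7 and 89.1% of that of P2ry13. For P2ry10, subset took 73.2% and day 9.3%. Entpd1 was split more evenly, with 37.9% for day, 18.2% for subset, 18.7% for their interaction and 25.1% between replicates. Among the genes themselves, P2ry12 and P2ry13 correlated at 0.94 over the 22 arrays and at 0.86 once group means were taken out, P2rx4 and P2rx7 at 0.96 and 0.46, and Nt5e and P2ry13 at -0.91 and -0.71. P2ry10 and P2rx7 correlated at 0.48 over arrays and at -0.65 within groups. These values describe arrays that share day, subset and, in part, replicate number.

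The genes whose levels over the 22 arrays were most like those of a member are given as a description. For P2ry10 they were Klrd1 (Pearson r = 0.972), Klrb1b (0.944) and Ccr7 (0.934), of which Klrd1 and Ccr7 are also on the marker lists above. For P2ry14 they were Slamf9 (0.967), Hfe (0.96) and Slc9a7 (0.958). P2ry12 was nearest to Tmem86a (0.975), Dguok (0.972) and Lair1 (0.971), and P2ry13 to Mknk1 (0.975), Ypel3 (0.974) and Tnfaip8l2 (0.966). For P2rx7 they were Gbgt1 (0.979), Itga9 (0.974) and Mylip (0.974), and for Nt5e Arg1 (0.969), the arginase gene, Slc7a8 (0.966) and Chst11 (0.955).

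The wider purinergic pathway (other receptors, nucleotidases, nucleoside transporters, ATP release channels and the inflammasome) moved in both directions. Of its genes, 52 of 58 were analysed, with the adenosine receptors not counted. Among the 52 were 9 receptors related to P2Y receptors by sequence or gene cluster. Of these 9, 5 rose in Gr1-positive and 4 in Gr1-negative cells from day 2 to 4, and 0 fell. From day 2 to 4 in Gr1-positive cells 14 rose and 6 fell (11.8% and 7.44% of all genes), with a median of 0.04, and in Gr1-negative cells 9 rose and 6 fell (8.15% and 6.69%), with a median of 0.03. Gpr34, a lysophosphatidylserine receptor gene, rose by 2.04 ± 0.35 in Gr1-positive cells (4.1-fold, limma adjusted p = 0.0004) and by 2.46 ± 0.35 in Gr1-negative cells (5.5-fold, adjusted p = 0.000109). Gja1, which encodes the gap junction protein connexin 43, fell by 2.12 ± 0.38 in Gr1-positive cells (4.36-fold, adjusted p = 0.000626) and fell by 1.36 in Gr1-negative cells (adjusted p = 0.0213). Dpp4, whose product CD26 holds adenosine deaminase at the cell surface, rose by 1.82 in Gr1-positive cells (3.53-fold, adjusted p = 7.33e-05).

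Between the subsets, 2 of the 52 pathway genes passed at day 1 and 3 at day 2, all higher in Gr1-negative cells, where 0.682% and 2.85% of all genes were higher. At day 1 they were Gpr171 and Dpp4 (1.14, 2.21-fold, limma adjusted p = 0.0392), and at day 2 Gpr171, Dpp4 (1.25, 2.38-fold, adjusted p = 0.0122) and Entpd4. At days 4 and 8 limma called 0, with 7 and 5 at an unadjusted p under 0.05. From day 1 to 2, 3 rose in Gr1-negative cells, against 3.8% of all genes, among them the ADP receptor gene P2ry1 (by 0.75), and in Gr1-positive cells limma called 0, with 10 at that p. From day 1 to 4 in Gr1-positive cells 21 rose and 7 fell (16.2% and 9.42% of all genes), and from day 1 to 8 in Gr1-negative cells 10 rose and 5 fell (8.68% and 9.77%).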

How the data were processed

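RNA of 22 samples was labelled with a whole-transcript kit and hybridised to Affymetrix arrays, per the labels' protocols. The authors deposited log2 signal per probe set, summarised with RMA per the submitters' processing notes; the version is not given in the sources used here. RMA compresses differences near the lowest and highest signals.

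Of 35556 probe sets, the platform table names a gene for 23410. The 1621 that name several genes were left out, names were updated through Entrez numbers for 21698 (RefSeq, GRCm38.p6), and the brightest probe set on average stood for each of 999 genes with several, which left 19938 genes. The smallest root mean square difference between a pair of arrays was 0.2329, so none is a copy.

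limma 3.58.1 in R 4.3.3 (statmod 1.5.0) fitted 1 mean per group over all 22 arrays, with Benjamini-Hochberg adjustment within each of 14 comparisons. Subset differences are Gr1-negative minus Gr1-positive and steps are later minus earlier day; many share arrays. The fit was tested on simulated data, and plots were made with matplotlib 3.10.9 (Python 3.11.15).

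The members and all gene lists were chosen with earlier results of these data known. Every member was named in each comparison where it passed; of the pathway lists, the 3 largest differences of a comparison could be named, and for members whose group means span at least 1 log2 unit the 3 most correlated genes. The neighbouring genes P2ry2, P2ry10b, Med12l and Gpr171 were named for their position. Alternatives were another normalization, probe rule, variance model and filter, array weights, a replicate block and each array left out in turn. Adora2b was not analysed here.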

Additional observations from a re-analysis of the deposited data

How the results depend on the processing

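Of 126 member differences, 34 passed. Over 1692 alternative values, 1634 kept their side of the threshold, 16 (of 5 differences) no longer passed and 42 (of 19) now passed. No difference that passed in the main fit or in the alternative changed sign. Changes of sign in differences that passed in neither were not counted. Among these, P2ry10 from day 4 to 8 in Gr1-positive cells went from 0.18 to -0.12 with a replicate block. The count of members called moved by over 1.5 times as follows, and the cause was not tested. Quantile normalization gave 1 in place of 2 for the subsets at day 1. Array quality weights gave 2 in place of 1 for the subsets at day 2, 1 in place of 0 at day 8, 4 in place of 1 from day 1 to 2 in both subsets, and 1 and 2 in place of 0 from day 4 to 8 in Gr1-negative and Gr1-positive cells. Calls over all 19938 genes moved too under these weights, from 569 higher and 136 lower to 2011 and 1038 for the subsets at day 2, from 266 and 138 to 908 and 554 at day 8, from 757 and 216 to 2090 and 733 from day 1 to 2 in Gr1-negative cells, and from 32 and 26 to 1256 and 586 in Gr1-positive cells. From day 4 to 8 they went from 632 and 1464 to 1833 and 2944, and from 316 and 922 to 887 and 2281. Leaving out both day 2 arrays numbered 1 gave 4 from day 1 to 2 in Gr1-negative cells, and 2 from day 4 to 8 in each subset, with 1743 higher and 488 lower over all genes, and 1245 and 2401 and 476 and 1546. Leaving out the genes under the median mean gave 1 from day 4 to 8 in Gr1-positive cells. Leaving out each array in turn gave 1 to 2 for the subsets at day 1, 1 to 2 and 0 to 1 from day 1 to 2 in Gr1-negative and Gr1-positive cells, 0 to 1 from day 4 to 8 in Gr1-positive cells, and 0 to 1 for the shift in the subset difference between days 1 and 4. At day 8 the single Gr1-positive array is assumed to vary like the other groups.

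With day and number as a replicate block, 3 members were called for the subsets at day 2 and 1 at day 4. For steps between days the block was the number within a subset, which takes equal numbers on different days as paired. With it, 3 and 1 members were called from day 1 to 2 and from day 4 to 8 in Gr1-negative cells. Over all genes the blocks called 1946 higher and 429 lower at day 2, and 522 and 182 at day 4 (109 and 34 without a block). In those steps they called 950 and 337, and 799 and 1767. Gained were P2ry14 and P2rx4 at day 2, P2ry10 at day 4 (limma adjusted p = 0.0456), Entpd1 at day 1 (-0.59, adjusted p = 0.00513), P2ry12 and P2ry13 from day 1 to 2, P2ry12 from day 2 to 4 (adjusted p = 0.0178) and P2ry13 from day 4 to 8; no call was lost. The labels do not say that a number marks a shared animal or day. Over all genes, deviations of same-numbered arrays of a day correlated above 0.1 in 8 of 9 pairs (0.0981 to 0.646) and in 7 of 15 across days (-0.37 to 0.31), and 18 of 18 arrays matched their own number best within a day, a hint from the data and not the design. Over the 9969 genes at or above the median mean, a check added after seeing the data, all 9 pairs were above 0.1 (0.246 to 0.864). Whether every pair exceeds 0.1 thus depends on the genes used, while the match to the own number was seen over all genes. The subset differences in the Results are from the fit without pairing.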
